A study of Mus musculus with 18 samples.

Results

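miR-103 and miR-107 are a pair of microRNAs that share their seed and that were read here in mammary tumours of mice. They were chosen by name, as 2 of the 583 rows of the study's miRNA table, with the passenger (*) rows left aside, because work on breast cancer cells has tied them to loss of Dicer and to metastasis. The study sequenced small RNA from mammary tumours of 18 AKXD strains, a panel of recombinant inbred strains, each represented by its F1 offspring with FVB/N-TgN(MMTV-PyVT)634Mul. The transgenic parent, shared by all F1 mice, brought the polyoma middle T transgene under the MMTV promoter, which drives tumours in mammary epithelium. The strains differed in the chromosome set from the AKXD parent. Tumour RNA was pooled to 1 library per strain, with the number and age of the mice in each pool not given in the labels. A strain is thus a group of 1, no strain can be tested against another, and the relations tested below are over the 18 strains. The labels give neither a metastasis measure nor a treatment, and Dicer itself was not measured.

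As background, a microRNA is cut from a hairpin, first by Drosha in the nucleus and then by Dicer in the cytoplasm, and is loaded into an Argonaute protein that it guides to mRNAs matching its seed, bases 2 to 8 of the mature strand. miR-103 and miR-107 are encoded in introns of the pantothenate kinase genes, whose enzymes start coenzyme A synthesis. In breast cancer cells they bind the mRNA of Dicer1 and lower its protein, and the miR-200 family, which holds cells in an epithelial state, falls with it. They are also known as regulators of insulin signalling in liver and fat.

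The mature sequences are shown first because the pair can be told apart by 1 base only. They are from RefSeq (GRCm38.p6), 5′ to 3′, with the seed in capitals.
miR-103: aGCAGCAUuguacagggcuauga
miR-107: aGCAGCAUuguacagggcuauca
Both are 23 bases long, 22 of them are identical, and the difference is G22C (miR-103's base first, position counted from 1 at the 5′ end). No other name among the 1679 mature RefSeq names has this seed. A read that ends before base 22 fits both, and no source used here says how the authors assigned such reads; exchange of reads between the rows was not tested.

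The hairpins are shown because 1 row, miR-103, stands for a pair of genes. The mature strand is in capitals and the coordinates are those of RefSeq on GRCm38.p6. The deposited table names rows without coordinates and the submitters' processing notes name the earlier build mm9, so the match was by name.
Mir103-1: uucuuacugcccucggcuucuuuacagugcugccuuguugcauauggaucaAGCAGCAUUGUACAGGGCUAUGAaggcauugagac
Mir103-2: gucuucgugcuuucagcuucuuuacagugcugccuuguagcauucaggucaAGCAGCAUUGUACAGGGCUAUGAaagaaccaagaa
Mir107: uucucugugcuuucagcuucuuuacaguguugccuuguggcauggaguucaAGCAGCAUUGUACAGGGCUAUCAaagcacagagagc
Mir103-1 lies at chr11:35782396-35782481 on the plus strand, in intron 5 of 6 of Pank3. Mir103-2 lies at chr2:131288052-131288137 on the plus strand, in intron 5 of 6 of Pank2. Mir107 lies at chr19:34820687-34820773 on the minus strand, in intron 5 of 6 of Pank1. Each hairpin is on the strand of its host gene, and in each the mature strand covers bases 52 to 74. Both Mir103 hairpins give the same mature strand, so their parts in the miR-103 row cannot be told apart.

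The match of the seed in Dicer1 is shown because it is the link that named the pair. The 3′ UTR of the transcript Dicer1-201 (3851 bases) holds ATGCTGC, the reverse complement of the seed in DNA letters, searched on the transcript strand alone. There is 1 match, at base 1417 of the UTR and at chr12:104690170-104690176 on the minus strand (GRCm38), here in capitals with the A that follows it.
Dicer1 3′ UTR: ctgatgcttcatgtaATGCTGCa
Of 1593 genes whose 3′ UTR is at least as long, 26.6% hold a match in their first 3851 bases. The match is a description of the letters and no measure of binding in these tumours.

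The libraries held 4358311 reads in miRNA rows (strain 7) to 14947282 (strain 27). Levels below are CPM, the reads of a row over those of its library on a common scale, after the trimmed-mean (TMM) scaling of libraries, whose factors ran from 0.671 (strain 14) to 1.67 (strain 28). Strains 10, 13, 14 and 20 stood apart from the rest. They lay lowest on the first principal component, which held 27.6% of the variance of log2 levels, and had the lowest scaling factors, at most 0.776 against at least 0.850 in the others. Strain 28 also stood out, since miR-21, a well-known oncogenic miRNA, was at 274 CPM there and at 52918 to 79896 CPM in the other strains. Strains 10, 13, 14 and 20 were therefore also left out, with and without strain 28. In a bulk tumour, fewer cells of a type and less RNA per cell cannot be told apart.

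miR-103 was among the abundant miRNAs by its mean over the tumour pools. Its level was 9218 ± 3402 CPM (mean ± SD, n = 18 strains), the 19th highest mean of the 281 tested miRNAs, the distinct rows that averaged 10 CPM or more. The highest levels were 16501 CPM in strain 10, 15680 in strain 13, 11998 in strain 14 and 11966 in strain 20. Strains 23, 25 and 27 followed with 11714, 10710 and 10529 CPM. The first 4 of these 7 strains are the libraries that stood apart. The middle of the order held strain 24 at 9269 CPM, strain 11 at 8880, strain 9 at 8480, strain 3 at 7626, strain 7 at 7620, strain 2 at 6509, strain 18 at 6357 and strain 16 at 6045. The lowest levels were 5548 CPM in strain 28, 5541 in strain 21 and 4959 in strain 22. The lowest and the highest strain thus differed 3.33-fold.

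Neighbours in this order were mostly separated by more than counting error. The 95% Poisson intervals of 3 of the 17 neighbouring pairs overlapped, namely strains 14 and 20, strains 3 and 7, and strains 28 and 21. These intervals cover counting error only, and with 1 pool per strain the spread between mice is not known. The SD of miR-103 over the strains was 0.52 on the log2(CPM + 1) scale, against 0.0047 from counting, and 62.9% of the other tested miRNAs varied less. Its spread was therefore near the middle of all miRNAs, whose median SD was 0.45.

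The position of strains 10, 13, 14 and 20 depended in part on the scaling. Their miR-103 levels, 11966 to 16501 CPM, did not overlap those of the other 14 strains, which ran from 4959 to 11714 CPM (mean 7842 ± 2151 SD). Scaled by total counts alone, miR-103 ran from 6261 CPM (strain 21) to 12081 (strain 13), and its SD fell to 0.31. On that scale strains 13 and 10 were still the highest and the next highest, but strain 20 was in place 8 and strain 14 in place 11. Over the strains, miR-103 had a Spearman rho of -0.86 with the scaling factor itself, and of -0.42 under total counts. These strains were picked out by the whole profile that miR-103 is part of, and miR-103 had a rho of -0.84 with the first principal component. How many of the other tested miRNAs also separate these strains without overlap was not counted, so the separation is a description.

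**Figure D1:**
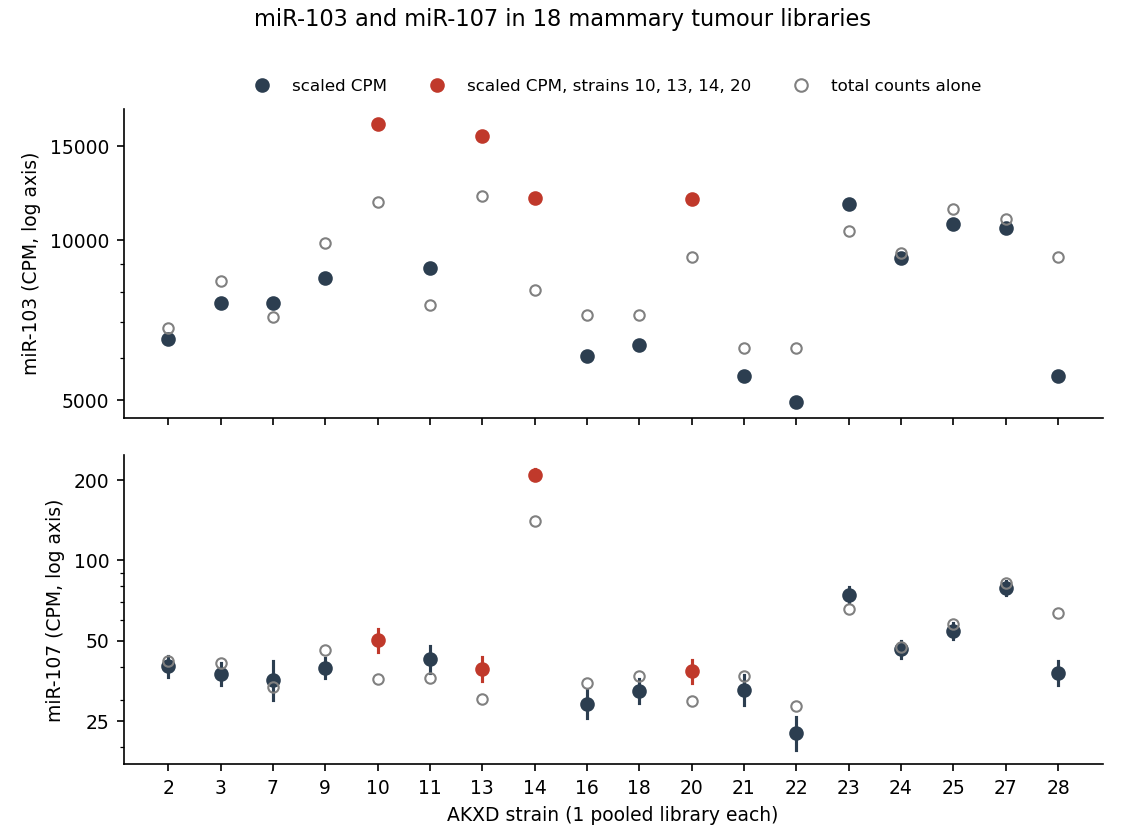
Level of miR-103 (upper panel) and miR-107 (lower panel) in CPM on log axes, for each of the 18 strains with 1 pooled library each; filled points are scaled CPM with 95% Poisson intervals, red for strains 10, 13, 14 and 20, and open circles are total counts alone. miR-103 is highest in the red strains after scaling, while in miR-107 strain 14 stands alone at 209 CPM.

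miR-107 was far scarcer and was marked by 1 tumour pool. Its mean was 52.4 ± 41.7 CPM (SD, n = 18), in place 171 of 281, and its median was 39.5 CPM. Strain 14 held 209 CPM, 2.65 times the next level, 78.9 CPM in strain 27. Strain 23 followed at 74.3 CPM, strain 25 at 54.4, strain 10 at 50.2, strain 24 at 46.5, strain 11 at 42.7 and strain 2 at 40.2. Strains 9, 13, 20, 28, 3 and 7 lay close together, at 39.7, 39.3, 38.5, 38.0, 37.7 and 35.6 CPM. The lower end of the order was strain 21 at 32.8 CPM, strain 18 at 32.5, strain 16 at 29.1 and strain 22 at 22.6. Strain 22 was thus the lowest for both miRNAs, and the range of miR-107 was 9.28-fold.

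Most of the order of miR-107 was not resolved at this depth. The row held 146 reads (strain 7) to 1849 reads (strain 14), and 15 of the 17 neighbouring pairs had overlapping 95% Poisson intervals. The gaps that were resolved lay between strains 14 and 27 and between strains 23 and 25. The SD over strains was 0.69 (log2), larger than that of 82.5% of the other tested miRNAs, but without strain 14 it was 0.44, larger than that of 48.6%. Under total counts strain 14 was again the highest, at 141 CPM against 82.1 in strain 27, while strains 10, 13 and 20 took places 13, 16 and 17.

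The share of miR-107 in the reads of the pair does not depend on library scaling. Its median was 0.495%, which is 201 reads of miR-103 for each read of miR-107. In 14 strains the share lay between 0.453% and 0.744%. The 4 strains that stood apart lay outside this range, on both sides of it. Strain 13 had a share of 0.250% (95% exact binomial interval 0.226 to 0.276%), strain 10 of 0.304% and strain 20 of 0.321%. Strain 14 had a share of 1.72% (1.64 to 1.80%), 2.31 times that of strain 27 and 6.85 times that of strain 13. In reads, the ratio of miR-103 to miR-107 ran from 57.3 in strain 14 to 398 in strain 13.

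The log2 ratio of miR-103 to miR-107 was 7.59 ± 0.59 (SD, n = 18). Without strain 14 it was 7.69 ± 0.41, and over the 14 strains without all 4 it was 7.53 ± 0.23. The proportion of the pair, which comes from 3 host genes on 3 chromosomes, thus varied less over those 14 strains. Strain 14 also had the highest summed level of several lists of markers for cells other than tumour epithelium. The skeletal muscle markers (miR-1, miR-133a, miR-133b, miR-206) summed to 303154 CPM there and to 22348 to 170023 CPM in the other strains. Most of the sum in strain 14 was miR-1 (290974 CPM). miR-1 and miR-206 were highest in strain 14, whereas miR-133a was in place 3 and miR-133b in place 6. The endothelial, erythroid and smooth muscle sums and miR-122, the miRNA of liver cells, were also highest there, and the leukocyte sum was in place 4. In the erythroid list miR-486 was highest in strain 14, with miR-451 in place 2 and miR-144 in place 3. The endothelial and smooth muscle sums were carried by 1 abundant member each, miR-126-3p and miR-143. The other member of each list was not high in strain 14, where miR-126-5p (1419 CPM) was in place 9 and miR-145 (154 CPM) in place 11. The part of these cells in the miR-107 level was not tested. Strain 13 had the next highest muscle sum and 39.3 CPM of miR-107.

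**Figure D2:**
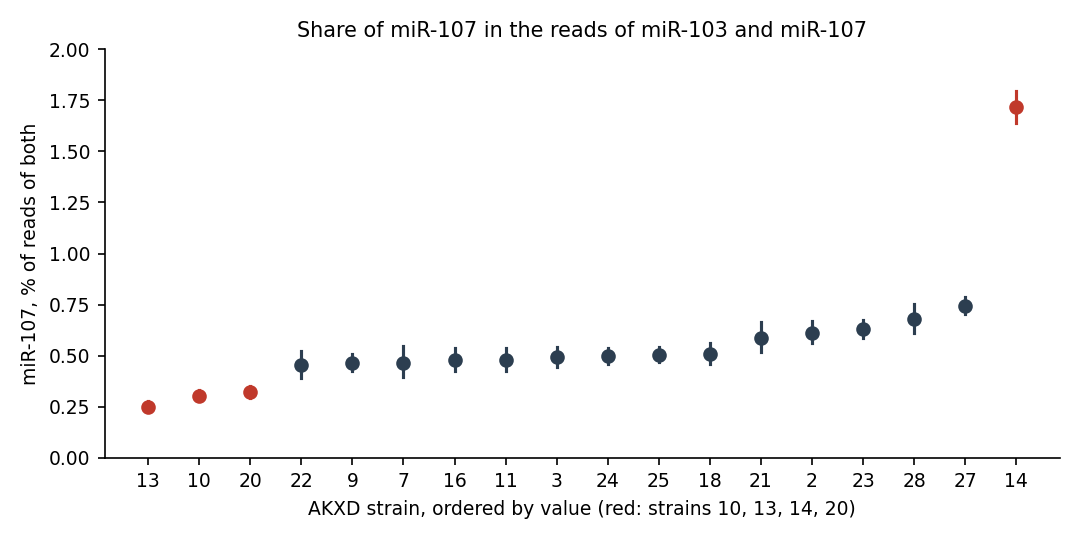
Share of miR-107 in the summed reads of miR-103 and miR-107 (percent, y axis), by strain in order of the share, with 95% exact binomial intervals; red marks strains 10, 13, 14 and 20. The 3 lowest shares and the highest belong to the red strains, and the other 14 lie between 0.453% and 0.744%.

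With TMM scaling, miR-103 and miR-107 rose and fell together over the strains, more closely once the libraries that stood apart were left out. Over all 18 strains Spearman's rho was 0.76 (permutation p = 0.00037, two-sided, and 0.0061 after Benjamini-Hochberg adjustment over 280 miRNAs) and Pearson's r was 0.56 (permutation p = 0.0095, adjusted p = 0.037). Without strains 10 and 13, the farthest from the median of miR-103, r was 0.73. Over the 14 strains without strains 10, 13, 14 and 20, rho was 0.89 (adjusted permutation p = 0.0098), and without strain 28 as well it was 0.93 (adjusted permutation p = 0.0056). Under total counts the relation over all 18 strains was not called, with a rho of 0.27 (adjusted permutation p = 0.51). Like miR-103, miR-107 was related to the scaling factor itself, with a rho of -0.63, and of -0.003 under total counts. Under total counts without the 4 strains rho was 0.79 (adjusted permutation p = 0.095), and without strain 28 as well 0.78 (adjusted permutation p = 0.078), both above the threshold of 0.05. The correlation kept its sign in each of these fits, and its size fell most where strains 10, 13, 14 and 20 were kept under total counts. The sequences of the pair differ at 1 base, and miR-107 made up 0.453% to 0.744% of the pair's reads in the 14 strains. The part of reads exchanged between the rows in this correlation was not tested.

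**Figure D3:**
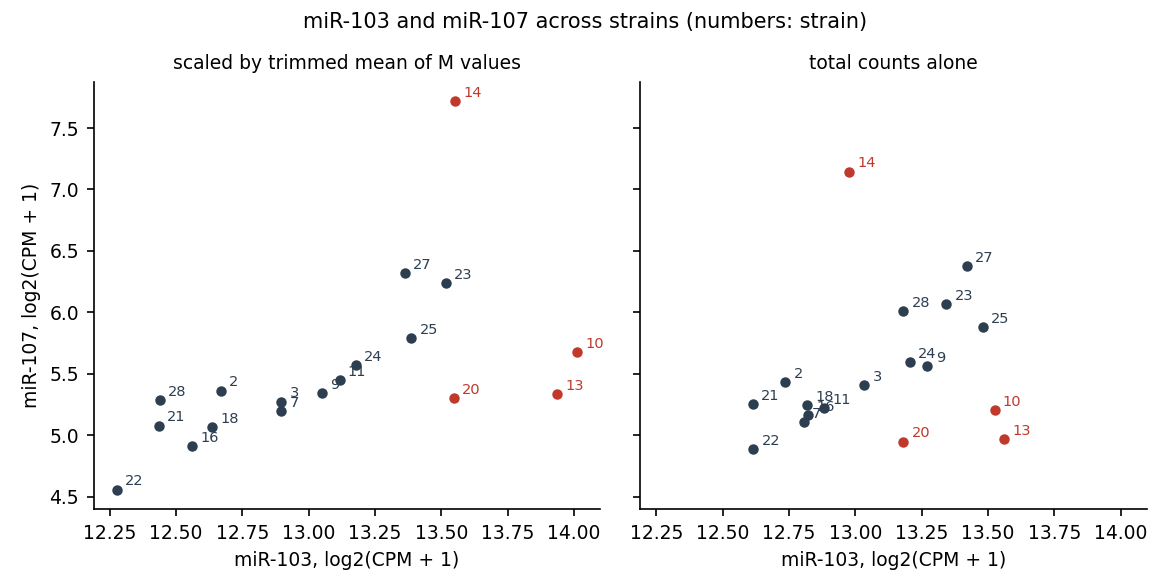
miR-107 against miR-103 in log2(CPM + 1), 1 point per strain with its number, with TMM scaling (left) and by total counts alone (right), with strains 10, 13, 14 and 20 in red. The 14 dark points lie near 1 line on the left (rho 0.89), and the red points lie off it on both sides.

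The relation of the pair is best read against how many other miRNAs moved with each of them. Of 280 other tested miRNAs, 69 were called with miR-103 by Spearman permutation tests at an adjusted p under 0.05 (24.6%), 45 of them positively (16.1%) and 24 negatively (8.57%). With miR-107, 8 were called (2.86%), 7 positively (2.5%) and 1 negatively (0.357%). At an unadjusted p under 0.05 the counts were 114 and 52, and by Pearson's r 85 were called with miR-103 and 0 with miR-107, of which 34 had an unadjusted p under 0.05. miR-107 was 13th among the positive relations of miR-103, and miR-103 was 4th among those of miR-107. Fewer were called with miR-103 without the 4 strains (8), without those and strain 28 (5), or under total counts (10). With miR-107, 3 were called in either leave-out, 0 under total counts (15 at an unadjusted p under 0.05) and 28 by upper quartile scaling, 26 of them positively. The median rho over all 280 was 0.05 for miR-103 and 0.04 for miR-107.

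The AGCAGC group shares part of the seed with the pair. Its members carry AGCAGC from base 2, where miR-103 and miR-107 carry it from base 1, so that their seeds are shifted by 1 base against each other. The group is known for repressing cyclins and BCL2. The sequences show the shift, with AGCAGC in capitals.
miR-103: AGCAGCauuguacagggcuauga
miR-107: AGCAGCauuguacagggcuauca
miR-15b: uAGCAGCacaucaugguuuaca
miR-16: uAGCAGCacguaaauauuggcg
miR-195: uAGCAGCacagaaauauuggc
miR-322: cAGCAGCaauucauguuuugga
miR-503: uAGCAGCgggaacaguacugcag
With miR-103, 3 of 7 tested members were called, all positively, against 16.1% of all 280 miRNAs. miR-15b (200 ± 55.2 CPM) had a rho of 0.82 and an adjusted permutation p of 0.0019. miR-16 (1283 ± 375 CPM), which shares transcripts with miR-15a and miR-15b, had a rho of 0.73 (adjusted permutation p = 0.0085). miR-195 (503 ± 184 CPM) had a rho of 0.69 (adjusted permutation p = 0.013).

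The other 4 members, miR-15a, miR-322, miR-497 and miR-503, were not called with miR-103. Of these the most abundant were miR-322, at 956 ± 221 CPM, and miR-497, at 223 ± 57.2 CPM. miR-322 and miR-503 come from 1 cluster on the X chromosome, and miR-497 from the cluster of miR-195. The median rho of the 7 was -0.09, against 0.05 over all 280 miRNAs. With miR-107, 2 of 7 were called, both positively, against 2.5% of all 280 miRNAs. These were miR-15b with a rho of 0.77 and miR-16 with a rho of 0.75 (adjusted permutation p = 0.024 for each). miR-15b was lowest in strain 16, at 124 CPM, and highest in strain 27, at 305 CPM, with a median of 210 CPM. Under total counts, or without strains 10, 13, 14 and 20, 0 of the 7 were called with either miRNA by the Spearman permutation test; miR-15b then had a rho of 0.48 and 0.75 with miR-103, and of 0.51 and 0.77 with miR-107.

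The miR-200 family, which represses ZEB1 and ZEB2 and keeps cells epithelial, had members called with miR-103. With miR-103, 3 of 5 members were called, all positively, against 16.1% of all 280 miRNAs, and the median rho was 0.59 against 0.05. miR-200c (17037 ± 4848 CPM) had a rho of 0.83 (adjusted permutation p = 0.0017). Its lowest level was 11097 CPM (strain 28) and its highest 26255 CPM (strain 10, which also had the most miR-103). miR-141, which lies in the same cluster as miR-200c, stood at 7942 ± 2347 CPM and had a rho of 0.76 (adjusted permutation p = 0.0066). miR-200b, of the other cluster, stood at 4694 ± 869 CPM and had a rho of 0.59 (adjusted permutation p = 0.0496), just under the threshold.

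The other members of that cluster, miR-200a (5588 ± 1307 CPM) and miR-429 (3839 ± 993 CPM), were not called. With miR-107, 0 of 5 were called by the Spearman permutation test, against 2.86% of all 280 miRNAs, and 1 had an unadjusted p under 0.05. By Pearson's r 0 were called. By upper quartile scaling 1 of 5 was called positively, where 26 of all 280 were. Whether the relation of the family to miR-103 differs from that to miR-107 was not tested. Of the calls with miR-103, that of miR-141 held under total counts (rho 0.72) and without strains 10, 13, 14 and 20 (rho 0.85). That of miR-200c was lost in both (rho 0.54 and 0.64). That of miR-200b was lost in both, and held in only 5 of the 13 alternative settings other than leaving out 1 strain. It was also lost on leaving out any of 12 single strains (2, 7, 10, 13, 16, 18, 20, 21, 22, 24, 25 or 28).

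The let-7 family, known as a brake on proliferation and for its sites in the coding sequence of the Dicer mRNA, had the most members called with miR-103 of the lists. With miR-103, 7 of 9 members were called, all positively, against 16.1% of all 280 miRNAs, and the median rho was 0.72 against 0.05. let-7a (53434 ± 14338 CPM) and let-7d (4121 ± 1316 CPM) each had a rho of 0.84, and miR-98 (644 ± 189 CPM) of 0.83. let-7f had a rho of 0.79, let-7b and let-7c of 0.72, and let-7g of 0.64. let-7e (1265 ± 301 CPM) and let-7i (3395 ± 702 CPM) were not called. Family members differ by few bases, so reads may be shared between their rows.

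With miR-107, let-7d alone of the 9 was called, positively, against 2.5% of all 280 miRNAs, with a rho of 0.82 (adjusted permutation p = 0.013). By upper quartile scaling 3 of 9 were called positively, where 26 of all 280 were, and by Pearson's r or under total counts 0 of 9. let-7d was lowest in strain 21, at 2189 CPM, and highest in strain 25, at 5820 CPM. Under total counts let-7d was the 1 member still called with miR-103 (rho 0.72), while let-7g had a rho of 0.03. Without strains 10, 13, 14 and 20, let-7d (rho 0.86) and miR-98 (0.82) were called with miR-103, and let-7d (0.89) with miR-107. With strain 28 left out as well, the call of miR-98 was lost. let-7g also lost its call with miR-103 without strain 21 or strain 28 (rho 0.60 in each).

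Of all 280 miRNAs, 24.6% were called with miR-103 in either direction and 16.1% positively. Of the lists for pathways that touch the pair, the metabolic list had 1 of 7 members called with miR-103, positively. This was miR-378, encoded in the gene of the coactivator PGC-1beta, at 33486 ± 26323 CPM, with a rho of 0.63 (adjusted permutation p = 0.031). miR-378 was highest in strain 14, at 126654 CPM, the strain with the most miR-107. Its call was lost under total counts (rho 0.12), median of ratios and identical rows kept, and on leaving out strain 10, 13, 14, 20 or 23. Without all 4 strains rho was 0.24, and under total counts without them it turned to -0.20.

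Of the miR-29 family, which targets collagens, 0 of 3 were called with either miRNA, and none had an unadjusted p under 0.05. The most abundant was miR-29a, at 1595 ± 476 CPM. miR-210, the miRNA most strongly induced by hypoxia, stood at 203 ± 153 CPM and was not called with either. Of the miR-34 rows, direct targets of p53, 3 of 5 were below the filter, and of the others, miR-34a (81.5 ± 29.3 CPM) and miR-34c (661 ± 479 CPM), 0 were called with either. Neither of the latter lists had a member with an unadjusted p under 0.05. With miR-107, 0 of 7 of the metabolic list were called, and 1 had an unadjusted p under 0.05. Since 2.86% of all 280 miRNAs were called with miR-107, a count of 0 in lists of this size is near the background.

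**Figure D4:**
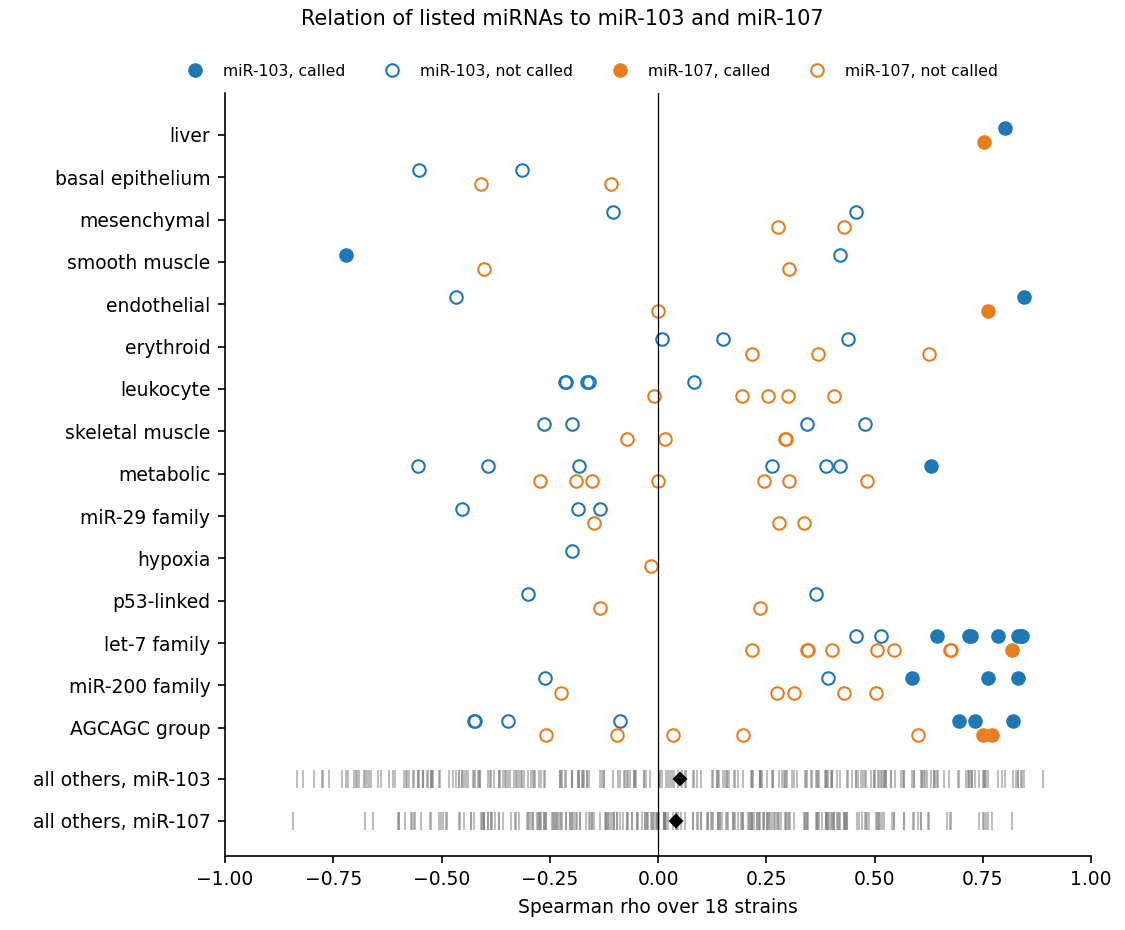
Spearman rho over the 18 strains (x axis) of each listed miRNA with miR-103 (blue) and miR-107 (orange), by list, filled where the adjusted permutation p was under 0.05; grey ticks are all 280 other miRNAs and black diamonds their medians (0.05 and 0.04). Filled points gather in the let-7, miR-200 and AGCAGC rows for miR-103, and are few for miR-107.

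Of the markers for other cell types, single members of short lists were called. With miR-103 these were 1 of 2 endothelial members, 1 of 2 smooth muscle members and the 1 liver member, against 24.6% of all 280 miRNAs. With miR-107 they were 1 of 2 endothelial members and the 1 liver member, against 2.86%. miR-126-3p, the miRNA of endothelial cells, was at 12443 ± 3471 CPM and had a rho of 0.85 with miR-103 and of 0.76 with miR-107 (adjusted permutation p = 0.0017 and 0.024). The other arm of its hairpin, miR-126-5p (1327 ± 372 CPM), was not called with either. Its rho was -0.47 with miR-103, opposite in sign to that of miR-126-3p, and -0.001 with miR-107. miR-122, nearly confined to liver cells in healthy tissue, ran from 1.56 CPM (strain 21) to 375 CPM (strain 14) and had a rho of 0.80 with miR-103 and of 0.75 with miR-107 (adjusted permutation p = 0.0030 and 0.024). miR-145, a smooth muscle miRNA, was called negatively with miR-103, with a rho of -0.72 (adjusted permutation p = 0.0097). Its cluster partner miR-143 was not called and had a rho of the opposite sign with miR-103 (0.42). Under total counts none of these calls held; the rho of miR-126-3p with miR-103 was then 0.20, that of miR-122 0.52 and that of miR-145 -0.41. Without strains 10, 13, 14 and 20, the call of miR-122 with miR-103 held (rho 0.79, adjusted permutation p = 0.042). The calls with miR-103 of miR-126-3p (rho 0.75, adjusted permutation p = 0.081) and miR-145 (rho -0.53, adjusted permutation p = 0.29) were lost there. So were those with miR-107 of miR-126-3p (rho 0.78, adjusted permutation p = 0.065) and miR-122 (rho 0.69, adjusted permutation p = 0.12). The part of these cells in the levels of the pair was not tested.

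The tested members of the skeletal muscle (4), leukocyte (5), erythroid (3), mesenchymal (2) and basal epithelial (2) lists were not called with either miRNA. For comparison, 24.6% of all 280 miRNAs were called with miR-103 and 2.86% with miR-107. At an unadjusted p under 0.05 there was 1 skeletal muscle and 1 basal member with miR-103, and 1 erythroid member with miR-107. The summed skeletal muscle markers ran from 22348 CPM (strain 9) to 303154 CPM (strain 14), and the leukocyte sum from 1573 CPM (strain 10) to 18251 CPM (strain 27). Strain 10, with the most miR-103, was thus in place 15 for muscle and had the least of the leukocyte markers. The sum of each list was above 0 in every strain, and the epithelial markers of the miR-200 family were each at 1665 CPM or more in every strain.

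The miRNAs whose pattern was most like that of miR-103 came from several families. The highest rho over the 18 strains was 0.89, for miR-30c-2*, a passenger strand of the miR-30 family, with a range of 287 CPM (strain 21) to 934 CPM (strain 20). miR-126-3p (0.85), let-7a (0.84), let-7d (0.84) and miR-98 (0.83) followed, and miR-200c tied with miR-98. At the other end, miR-339-3p had a rho of -0.83 and a range of 2.45 CPM (strain 10) to 23.7 CPM (strain 11). miR-190 had a rho of -0.82, a lowest level of 50.2 CPM (strain 14) and a highest of 230.1 CPM (strain 22, the lowest in both miR-103 and miR-107). All 7 were called, at adjusted permutation p-values of 0.0017 to 0.0020. Of them, let-7d kept its call under total counts. Without strains 10, 13, 14 and 20, miR-30c-2* (rho 0.82), let-7d (0.86) and miR-98 (0.82) kept theirs. The calls of miR-126-3p, let-7a (rho 0.73, adjusted permutation p = 0.090), miR-190 (-0.65, 0.16) and miR-339-3p (-0.65, 0.16) were lost there.

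For miR-107 the nearest patterns were let-7d (0.82), miR-15b (0.77), miR-126-3p (0.76), miR-103 (0.76) and miR-122 (0.75). The lowest rho was -0.84, for miR-127*, an imprinted passenger strand that ranged between 8.92 CPM (strain 25) and 25.7 CPM (strain 18; adjusted permutation p = 0.011). The next lowest was miR-190, with a rho of -0.68, which was not called (adjusted permutation p = 0.075). By Pearson's r none of these relations of miR-107 was called. On leaving out 1 strain, that of miR-15b was lost without strain 3, 14, 16, 21 or 27, and those of miR-16 and miR-126-3p without these or strain 18. That of miR-122 was lost without strain 3, 14, 16, 18 or 21, whereas those of let-7d and miR-127* held on each such leave-out. Without strains 10, 13, 14 and 20 together, let-7d (rho 0.89) and miR-127* (-0.86) were called, and miR-15b, miR-16, miR-126-3p and miR-122 were not. Under total counts none of these relations of miR-107 was called, with a rho of 0.54 for let-7d and of -0.26 for miR-127* (adjusted permutation p = 0.78 and 0.81).

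Dicer itself was not measured, and a ratio that could move with its activity is that of miR-451 to miR-144. The pair is cut from 1 primary transcript in red blood cell precursors, but miR-451 matures through Argonaute 2 without Dicer, whereas miR-144 needs Dicer. They are shown with their seeds in capitals.
miR-451: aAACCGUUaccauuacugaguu
miR-144: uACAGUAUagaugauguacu
miR-451 stood at 309 ± 118 CPM and miR-144 at 20.7 ± 8.11 CPM (SD, n = 18). Their log2 ratio, taken with the pseudocount of 1 CPM, was 3.84 ± 0.32. It was lowest in strain 11, at 3.18, and highest in strain 10, at 4.36, the strain with the most miR-103. Counting error of the ratio had a median SD of 0.11 and at most 0.20, since the miR-144 row held 58 to 593 reads. Both are erythroid miRNAs, so the ratio is no readout of the tumour epithelium.

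The ratio was higher in strains with more miR-103. Spearman's rho was 0.67 (permutation p = 0.0031, and 0.0062 after Benjamini-Hochberg adjustment over the 2 relations) and Pearson's r was 0.67 (permutation p = 0.0026, adjusted p = 0.0052). Without strains 10 and 13, r was 0.60. Without strains 10, 13, 14 and 20, rho was 0.60 (adjusted permutation p = 0.0495), and without strain 28 as well the call was lost at a rho of 0.59 (adjusted permutation p = 0.072). Under total counts rho was 0.70 (adjusted permutation p = 0.0036), so here the scaling did not remove the call, and with the ratio taken from reads without a pseudocount rho was 0.71 (adjusted permutation p = 0.0028). With miR-107, rho was 0.41 (permutation p = 0.089, adjusted p = 0.089) and r 0.36 (permutation p = 0.14, adjusted p = 0.14), and without strains 14 and 27 r was 0.50. On their own, miR-451 (rho 0.44) and miR-144 (rho 0.01) were not called with miR-103. How many other miRNAs were related to this ratio was not tested, nor whether its relation with miR-103 differs from that with miR-107.

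**Figure D5:**
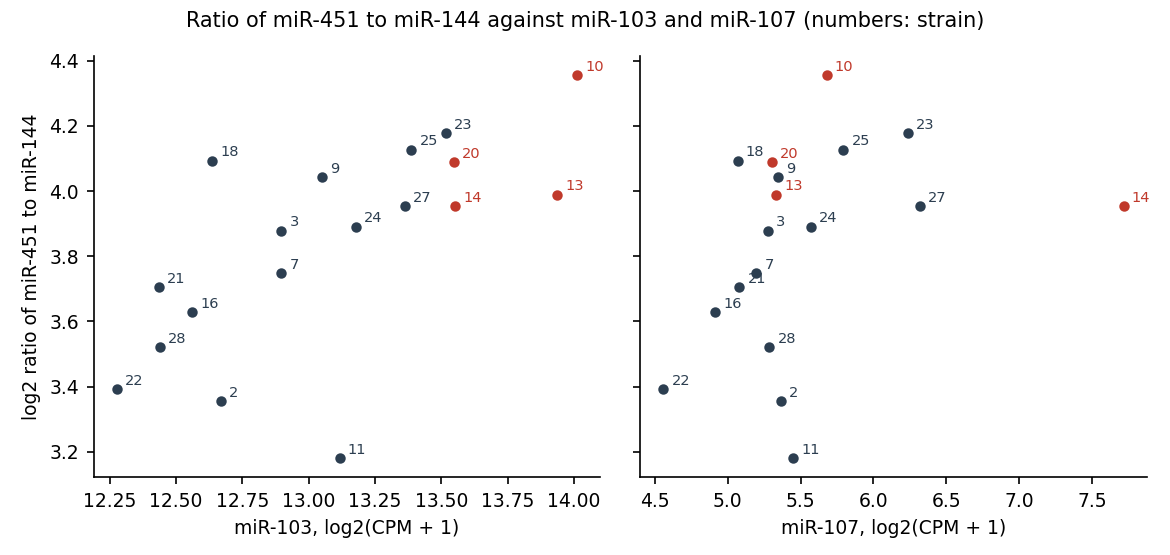
Log2 ratio of miR-451 to miR-144 (y axis) against miR-103 (left) and miR-107 (right) in log2(CPM + 1), 1 point per strain with its number, with strains 10, 13, 14 and 20 in red. The ratio is higher where miR-103 is higher (rho 0.67), with strain 11 the lowest; on the right rho is 0.41 and strain 14 lies far to the side.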

How the data were processed

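Small RNA of pooled mammary tumours, extracted with the mirVana kit from snap-frozen tissue per the labels' protocols, was read by an Illumina Genome Analyzer IIx (series' design text). The submitters' processing notes name BWA and mm9 without version or role. The authors deposited 1 table of log2 values, 583 miRNA rows by 18 strains. All 3818 values of up to 50 reads came out as whole reads (within 0.006 log2) times a constant per library, 0.999 to 1.39, so reads were recovered; the deposited rounding (0.005 log2) limits them to 0.347%. Identical rows (20) were merged, leaving 571.

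Libraries were put on a common CPM scale by TMM, the trimmed mean of M values, with trims of 30% (log ratios) and 5% (abundance), and log2(CPM + 1) was used. The 281 rows averaging 10 CPM or more were tested with two-sided permutation tests (100000 resamples) and Benjamini-Hochberg adjustment over the other 280, at a threshold of 0.05, in Python 3.11.15 with numpy 2.4.6 and scipy 1.17.1. The correlation test was also run on simulated counts with planted relations and otherwise independent noise. That simulation modelled no libraries that stand apart, so it does not bear on how the calls depend on them. miR-103, miR-107, the lists and the alternatives were chosen with earlier results of these data known. Named miRNAs are the 5 with the highest and the 2 with the lowest rho for each of the pair, the called members of each list and otherwise its 2 most abundant, and miR-451 and miR-144; other list members are named where a count of 5 or fewer needed it. Nothing says whether pools hold separate mice. The p-values come from permuting these 18 libraries against each other and take no account of the spread between mice. Alternatives were total counts, upper quartile, median of ratios, other pseudocounts, other filters, identical rows kept, Pearson's r, and libraries left out.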

Additional observations from a re-analysis of the deposited data

How the results depend on the processing

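No paired analysis was possible because each strain has 1 library and all carry the same replicate number. Under total counts, miRNAs correlated with miR-103 numbered 10 (66 at an unadjusted p under 0.05) and with miR-107 0 (15), and miR-103 with miR-107 had a rho of 0.271. Without strains 10, 13, 14 and 20 the counts were 8 and 3, and without strain 28 as well 5 and 3. Total counts combined with these leave-outs, chosen after seeing the data, gave 0 and 0 in both cases by Spearman permutation tests (46 and 28, then 59 and 41, unadjusted), with a rho of the pair of 0.785 and 0.775, and turned miR-103 with miR-378 to -0.204 and -0.286. At a mean of at least 100 CPM the counts were 40 and 5. For miR-107 the count was 28 by upper quartile, 5 with identical rows kept and 0 by Pearson's r (34 unadjusted).

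Leaving out 1 strain gave 45 (without strain 20) to 78 miRNAs for miR-103 and 2 (without strain 3, 14, 16 or 21) to 11 for miR-107, with 3 without strain 18 and 4 without strain 27. The pair's rho then ran from 0.711 to 0.831. miR-103 with the ratio of miR-451 to miR-144 ran from 0.608 to 0.777, and was 0.593, not called, without strains 10, 13, 14, 20 and 28. miR-107 with that ratio ran from 0.346 to 0.522 on leaving out 1 strain and was called without strain 2, 11 or 18, by upper quartile (0.527), at a pseudocount of 10 CPM (0.624) and under total counts without the 5 strains (0.654). The ratio taken from reads without a pseudocount, also added later, changed no call. Scaling alone all but fixed the mean log2 levels, since its factors were centred on a common mean, and the pair's ratio does not depend on scaling. The mean levels under leave-outs and other pseudocounts, and the ratio under leave-outs, moved by less than 1 SD. The SD of miR-103 did move, from 0.52 to 0.31 under total counts.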
